A study of Manihot esculenta with 3 samples.

Results

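A set of 201 genes of the expanded cassava leaf stood, in 1 of 3 replicate libraries, at no more than 0.5 times their level in either of the other libraries. The genes were chosen on the measured values themselves. A gene entered the set when its value was above 0 in all 3 libraries, its mean over them lay from 10 to below 1000 FPKM, and its replicate 1 value was at most 0.5 times the lower of replicates 2 and 3. FPKM counts the sequenced fragments of a gene per kilobase of its transcript and per unit of library size. Of 33033 genes listed, 11590 met the conditions on detection and mean level and are called eligible here, and 201 of these, or 1.73%, met the condition on replicate 1. Because the low level in replicate 1 was what the rule asked for, it is described below and was not tested.

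Cassava (Manihot esculenta) is a tropical shrub grown for its starchy storage roots, and TME 7 is the cultivar sampled. The 3 polyadenylated RNA libraries came from expanded leaves of TME 7 plants aged 7.5 weeks, per the labels, and form 1 group with no contrasting treatment or genotype. Either of 2 leaf positions could be taken, and the labels do not say which leaf or which plant gave each library. Differences between leaves or plants and technical differences therefore cannot be told apart, and part or all of the spread between libraries may be technical. The expanded leaf is the main site of photosynthesis, and its RNA is a mixture from mesophyll, epidermis, guard cells and veins. In such bulk samples, fewer cells of a type and less RNA per cell cannot be told apart. In plant genomes, copies of a gene often lie side by side, and this is a reason to look at where the members sit relative to each other.

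The deposited table does not pair its identifiers with gene names, and 0 of the 33033 identifiers matched the gene table used here. The members are therefore described by identifier, and neither their function nor the leaf markers that would check the tissue label can be given. Summed FPKM over all genes was 915718, 915236 and 952243 in replicates 1, 2 and 3. The number of fragments behind a value is not known.

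The members formed a lowered band in replicate 1 at every level. Their FPKM in replicate 1 ran from 0.791 to 546 with a median of 12.9. In replicate 2 it ran from 10.5 to 1279 with a median of 38.2, and in replicate 3 from 7.78 to 1170 with a median of 33.1. Over all eligible genes the medians of the 3 libraries were close to each other, at 23.6, 24.0 and 23.8 FPKM. The members thus lay below the median eligible gene in replicate 1 and above it in replicates 2 and 3, taken by their medians.

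**Figure D1:**
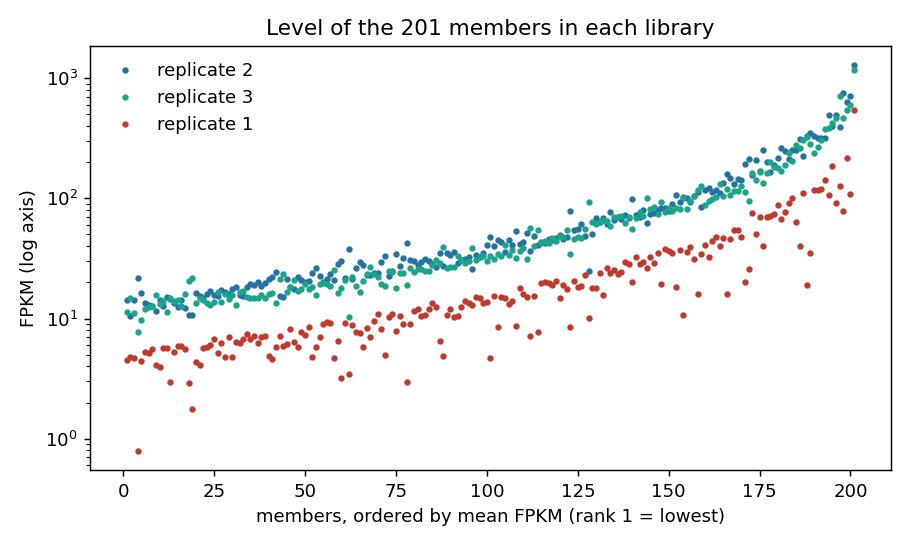
FPKM of each of the 201 members (log axis) in replicates 1, 2 and 3, with members ordered by their mean. Each point is 1 gene in 1 library. The replicate 1 points run below the other 2 bands along the whole range, as the rule requires, while replicates 2 and 3 mostly overlap.

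The members ranked lower within replicate 1, which follows from the rule, since ranks and shares were taken from the values it used. Counted from the highest of all 33033 genes, their median rank there was 9924, against 3734 and 4242 in replicates 2 and 3. There were 8 members among the 1000 highest genes of replicate 1, against 37 and 32 in replicates 2 and 3. Together the members held 0.614% of summed FPKM in replicate 1, 2.00% in replicate 2 and 1.74% in replicate 3. At 100 FPKM or more stood 11 members in replicate 1, 47 in replicate 2 and 41 in replicate 3. At the other end, 24 members were below 5 FPKM in replicate 1, and 1 of them was below 1 FPKM.

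Members were found at every mean level the rule allowed, and within these limits their share of eligible genes was larger in most of the higher classes. Below the lower limit, 389 of 9617 genes with a mean of 1 to below 10 FPKM met the condition on replicate 1. That was a larger share than in the lowest classes of the rule, and slightly larger than in any class by the mean of all 3 libraries. The share therefore did not rise with level over the whole range. Of eligible genes with a mean of 50 FPKM or more, 71 of 2662, or 2.67%, were members. Below 50 FPKM the number was 130 of 8928, or 1.46%. The share was 1.54% from 10 to 20 FPKM, 1.36% from 20 to 50, 2.48% from 50 to 100, 2.51% from 100 to 200 and 4.01% from 200 to 500. From 500 to 1000 FPKM it was 1.22%, which was 1 gene of 82. The mean includes the low replicate 1 value. When genes were classed by the mean of replicates 2 and 3 instead, the share went from 1.16% of genes of 10 to 20 FPKM to 3.51%, 4.07% and 5.0% at 100 to 200, 200 to 500 and 500 to 1000 FPKM. The last of these was 4 genes of 80. Eligibility still rested on the mean of all 3 libraries. A gene with a low replicate 1 value therefore needed higher values in replicates 2 and 3 to reach 10 FPKM. This lowered the share in the first class, so part of the rise was set by the rule.

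Most of the drops were moderate. Taking the lower of replicates 2 and 3 over replicate 1, the median drop was 2.43-fold, or 1.28 on the log2 scale, and the middle 50% of members lay between 2.17-fold and 2.93-fold. The drop was below 2.5-fold in 114 members. It exceeded 3-fold in 48 members, 4-fold in 25 and 8-fold in 4. Against replicate 2 alone the median was 2.77-fold, and against replicate 3 alone 2.51-fold. The median drop was 2.38-fold, 2.44-fold, 2.43-fold and 2.43-fold in the first 4 classes of mean level, and 3.10-fold in the 15 members of 200 to 500 FPKM.

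The threshold cut through a continuous range of values. Just inside it, Manes.09G059800.v6.1 had 5.66, 15.1 and 11.3 FPKM in replicates 1, 2 and 3, a drop of 2.0033-fold. Just outside it, Manes.02G181800.v6.1 had 7.51, 17.3 and 15.01 FPKM, a drop of 1.9992-fold. There were 27 members with a drop below 2.1-fold, and 60 eligible genes lay outside with a drop of at least 1.9-fold. These edge genes, and the other genes given below apart from the 2 with the largest drop, were chosen as examples after their values were seen.

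The largest drop belonged to Manes.15G163100.v6.1, on chromosome 15 by its identifier. Its levels were 19.1, 329 and 324 FPKM in replicates 1, 2 and 3. The last 2 values were nearly equal, at 1.02-fold, while the lower of them was 16.96 times that of replicate 1. Next was Manes.13G043400.v6.1, on chromosome 13, with 0.791, 21.8 and 7.78 FPKM in replicates 1, 2 and 3. Its drop was 9.83-fold, but replicates 2 and 3 differed 2.80-fold, and it was the lowest member in replicate 1. Its size therefore depended on the reference library, being 27.5-fold against replicate 2. The drop also depended on the low replicate 1 value: with 1 added to each FPKM value it went from 3.30 to 2.29 on the log2 scale.

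The other members past 8-fold were Manes.17G101600.v6.1 and Manes.04G144900.v6.1. The first, on chromosome 17, stood at 10.6, 103 and 99.6 FPKM in replicates 1, 2 and 3. The second, on chromosome 4, stood at 34.9, 352 and 284 FPKM. Replicates 2 and 3 of the first lay within 1.03-fold of each other and those of the second within 1.24-fold, so in both genes replicate 1 was the library apart.

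A further 14 members had drops of more than 5-fold and up to 8-fold. In Manes.10G071700.v6.1, on chromosome 10, the 3 libraries stood at 16.0, 112 and 117 FPKM, and the 2 high values lay within 1.05-fold. In Manes.03G039900.v6.1, on chromosome 3, they stood at 78.0, 748 and 463 FPKM, and the 2 high values differed 1.62-fold. Only 4 of the 14 had replicates 2 and 3 within 25% of each other, and 9 had replicate 2 above replicate 3.

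Among abundant members, Manes.16G096200.v6.1 on chromosome 16 had the highest mean. Its levels were 546, 1279 and 1170 FPKM in replicates 1, 2 and 3, and its mean of 998 FPKM lay just under the upper limit of the rule. Manes.06G059800.v6.1, on chromosome 6, came next with 109, 706 and 599 FPKM and a drop of 5.49-fold. In both genes replicate 1 was well below a pair of similar values.

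Low values of this kind were seen mainly in replicate 1. With the same rule applied to the other libraries, 13 genes, or 0.112% of those eligible, were at most 0.5 times the lower of the others in replicate 2, and 13, or 0.112%, in replicate 3. The contrast was present at milder and at stronger thresholds. At least 1.5-fold below both other libraries were 860 genes in replicate 1, 95 in replicate 2 and 59 in replicate 3. At least 4-fold below were 25 genes, 1 gene and 2 genes. In single pairs of libraries the 2 counts lay closer as a ratio: 250 genes were at most 0.5 times replicate 3 in replicate 1 and 164 the other way round, when replicate 2 was left out of the rule and of the mean. Without replicate 3 the numbers were 484 genes low in replicate 1 and 232 low in replicate 2, and without replicate 1 there were 36 low in replicate 2 and 62 low in replicate 3. The counts come from the same 3 values per gene and are not independent, and with 1 library on 1 side no test was made.

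Replicate 1 also held the most raised genes, but fewer of them. Genes at least 2-fold above the higher of the other libraries numbered 95 in replicate 1 (0.820%), 33 in replicate 2 (0.285%) and 13 in replicate 3 (0.112%). The 201 lowered genes in replicate 1 were thus 106 more than the 95 raised ones. Without regard to size, replicate 1 was the lowest library in 42.0% of eligible genes and the highest in 42.9%. The excess of lowered over raised genes therefore concerned the larger differences: at 25% or more the counts were 1993 and 1520, and at 1.5-fold 860 and 466.

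**Figure D2:**
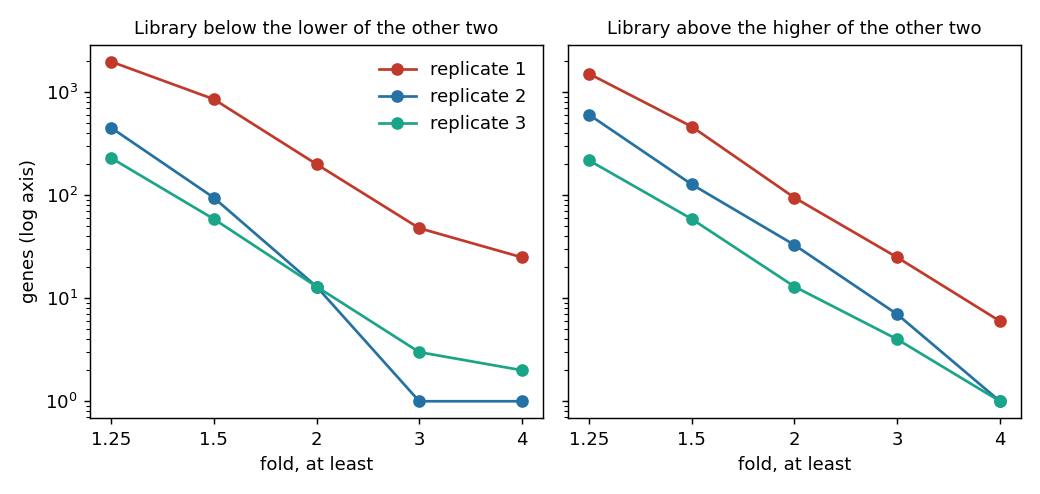
Number of eligible genes (log axis) in which a library lay below the lower (left) or above the higher (right) of the other 2 libraries by at least the fold on the x axis. The line of replicate 1 is the top line in both panels, and at 2-fold it stands at 201 genes on the left and 95 on the right.

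In 2 members the ratio of replicates 2 and 3 exceeded the drop itself. In the other 199 it was smaller, which the rule nearly fixed, since it asks for a drop of at least 2-fold and 99.2% of eligible genes had replicates 2 and 3 within 2-fold. The 2 genes were Manes.03G193800.v6.1, with 10.01, 24.7 and 92.7 FPKM in replicates 1, 2 and 3, and Manes.07G023300.v6.1, with 3.46, 38.2 and 10.4 FPKM. In these genes all 3 libraries differed, and the high library was replicate 3 in the first and replicate 2 in the second.

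The members showed a wider gap between replicates 2 and 3 than eligible genes in general. The higher of them was at most 25% above the lower in 123 members, or 61.2%, against 85.5% of eligible genes. Within 1.5-fold were 173 members, or 86.1%, against 96.5%. The ratio exceeded 2-fold in 7 members, 3.48%, against 0.777% of eligible genes. The median ratio was 1.18-fold in members and 1.10-fold in eligible genes. Because the rule uses both libraries, this measure is not independent of it.

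Replicates 2 and 3 were close to each other in a smaller share of genes where the drop was larger. Of 659 eligible genes 1.5-fold to 2-fold lower in replicate 1, which are not members, 72.7% had replicates 2 and 3 within 25% of each other. The share was 66.0% of the 153 members with a drop below 3-fold and 45.8% of the 48 members with a drop of 3-fold or more. By mean level, it was 53.4% of members of 10 to 20 FPKM, 63.2% from 20 to 50, 73.0% from 50 to 100 and 61.8% at 100 FPKM or more. Among eligible genes of the same 4 classes it was 84.6%, 86.8%, 87.8% and 81.7%, so the members' share was lower in each class.

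The gap between replicates 2 and 3 also had a preferred direction. Replicate 2 was above replicate 3 in 141 members, 70.1%, and below it in 60. Over all eligible genes replicate 2 was the higher one in 50.4%, but the rule asks for replicate 1 to be the lowest library. The closer comparison is with other genes lowest in replicate 1, and the preference was present there too. Replicate 2 was above replicate 3 in 61.1% of the 2870 genes with replicate 1 lowest by less than 25%. The share was 75.5% of the 1133 genes lowest by 25% to 1.5-fold. It was 76.6% of the 659 genes lowered 1.5-fold to 2-fold in replicate 1. The preference was therefore not particular to members. Among the 95 genes doubled in replicate 1 the order was the opposite, with replicate 2 below replicate 3 in 63, or 66.3%. Among the members and among these 95 genes, replicate 3 thus lay between the others in most genes. It did so in most eligible genes as well, being the lowest library in 22.3% of them and the highest in 21.4%.

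**Figure D3:**
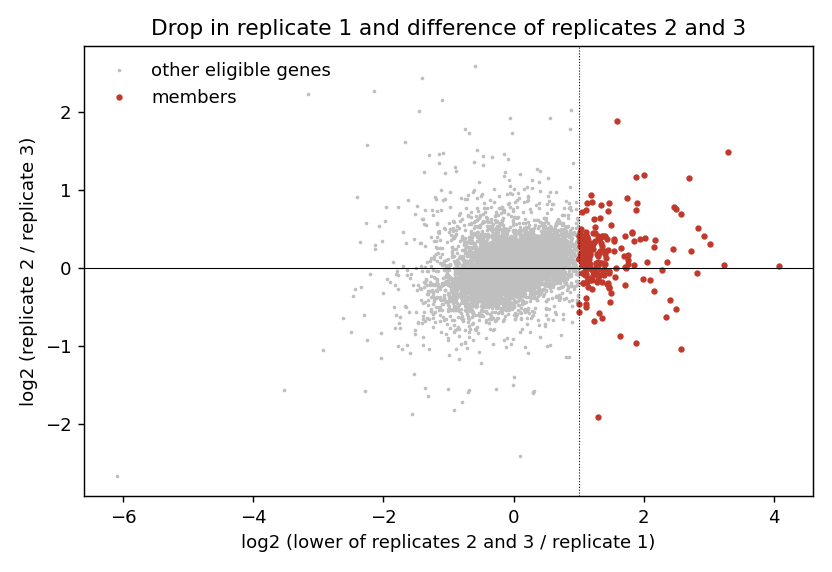
Each point is an eligible gene, placed by the log2 ratio of the lower of replicates 2 and 3 to replicate 1 (x axis) and the log2 ratio of replicates 2 and 3 (y axis); the dotted line marks the rule's threshold and members are red. Most members lie close to the threshold, and 141 of 201 lie above the horizontal line, where replicate 2 exceeds replicate 3.

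The members were spread over all 18 chromosomes and over identifiers that carry the letter S in place of a chromosome number. Identifier numbers ran in steps of 100 with none skipped, and genes were placed along a chromosome by these numbers. The members were 1.71% of eligible genes with a chromosome number. By chromosome they ran from 1.02% on chromosome 3, with 8 members, to 2.65% on chromosome 6, with 18. Chromosome 15 held the most members, 19, or 2.497% of its eligible genes, and chromosome 7 held 11, or 2.52%. The largest chromosome by listed genes, chromosome 1, held 13 members, or 1.27%. The shares rest on 7 to 19 genes each and were not tested against each other.

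Among S identifiers there were 6 members of 219 eligible genes, or 2.74%. Their drops ran from 2.18-fold to 5.31-fold. The largest was that of Manes.S077300.v6.1, with 7.76, 41.2 and 54.5 FPKM in replicates 1, 2 and 3. All 6 had low replicate 1 values, from 5.82 to 18.3 FPKM.

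**Figure D4:**
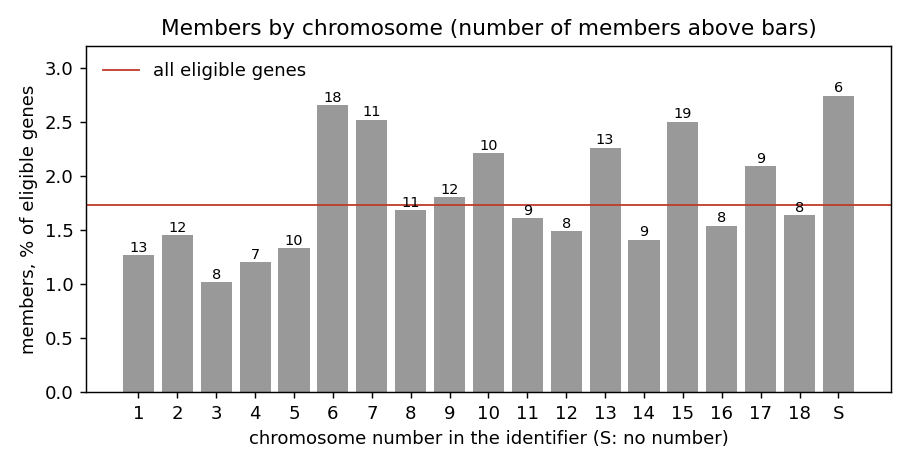
Members as a percentage of eligible genes for each chromosome number in the identifier and for S identifiers, with the number of members above each bar. The red line is the share over all eligible genes, 1.73%, and the bars run from 1.02% to 2.74%.

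Members were seldom next to each other. The median distance between successive members of a chromosome, or of the S identifiers, was 104 listed genes. In the counts of distance and neighbours, S identifiers were ordered by number as 1 more group. They carry no chromosome number, so their order along a chromosome is not known. Only 2 of the 201 members had a member as the next or previous listed gene. Of the 402 places directly beside members, 121 held an eligible gene, and 2 of these 121, or 1.65%, were members, near the 1.73% of all eligible genes. At exactly 3 and 5 places the shares were 4 of 146, or 2.74%, and 6 of 146, or 4.11%, and at exactly 2 and 10 places they were 0 of 147 and 0 of 144. Each pair of members counts from both of its sides in these numbers. Within 5 places 11 members, or 5.47%, had another member, and 5.99% of all eligible genes had a member that near. Within 20 places the shares were 18.4% of members, which was 37 genes, and 22.4% of eligible genes. By these counts members were no nearer to each other than eligible genes were to members.

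The adjacent pair was on chromosome 8. Manes.08G142400.v6.1 had 8.56, 78.0 and 34.2 FPKM in replicates 1, 2 and 3. Its neighbour Manes.08G142500.v6.1 stood at 15.8, 69.0 and 65.6 FPKM. The drops were close in size, 3.99-fold and 4.15-fold, but replicates 2 and 3 differed 2.28-fold in the first gene and 1.05-fold in the second.

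A pair 3 places apart on chromosome 7 resembled each other in level. Manes.07G140700.v6.1 stood at 35.2, 90.2 and 78.8 FPKM in replicates 1, 2 and 3, and Manes.07G141000.v6.1 at 26.1, 60.7 and 64.7 FPKM. A pair 5 places apart on chromosome 11 shared the order of the libraries instead. There, Manes.11G093200.v6.1 stood at 34.4, 85.1 and 127 FPKM and Manes.11G093700.v6.1 at 5.87, 14.99 and 23.4 FPKM, with replicate 3 the highest in both.

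Eligible neighbours that were not members leaned slightly the same way at some distances. Directly beside members, 70 of 119 such genes, or 58.8%, were lower in replicate 1 than the log2 mean of replicates 2 and 3, against 48.3% of all eligible genes that were not members. The median difference on the log2 scale was -0.0848 against 0.0155. At 2 places the share was 55.8%, at 3 places 46.1%, at 5 places 47.9% and at 10 places 52.4%. The median difference was -0.0557 at 2 places and -0.0542 at 10, against 0.0279 at 3 and 0.0336 at 5. By these measures the lean was seen at 1, 2 and 10 places and not at 3 or 5, so it did not fall off steadily with distance. It was not tested.

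The densest stretch was on chromosome 6. Within 25 successive listed genes that begin with Manes.06G170000.v6.1 there were 5 members among 12 eligible genes. No other such stretch that begins with a member and does not overlap this one held more than 3. Outside the stretch, chromosome 6 had 13 members among 668 eligible genes, or 1.95%. The stretch was picked for holding many members, so the share without it had to be lower.

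Levels of the 5 genes differed widely. Manes.06G170000.v6.1 stood at 20.6, 54.8 and 45.7 FPKM in replicates 1, 2 and 3. Manes.06G170800.v6.1 stood at 215, 627 and 538 FPKM, and its drop of 2.502-fold was close to the 2.51-fold of Manes.06G171600.v6.1, which stood at 5.72, 14.95 and 14.3 FPKM. In each of these 3 genes replicates 2 and 3 lay near each other and replicate 1 well below.

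Manes.06G172100.v6.1, at the end of the stretch, stood at 15.5, 40.0 and 31.4 FPKM, just past the threshold at 2.02-fold. Manes.06G170300.v6.1 differed from the rest, with 126, 390 and 711 FPKM and replicate 3 the highest. It was also the single member whose value matched that of another gene exactly (among values of at least 100 FPKM), in replicate 1. Without it, 4 members remained in the stretch.

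The low replicate 1 values did not extend to every gene of the stretch. Of the 7 eligible genes there that were not members, 2 were lower in replicate 1 than the log2 mean of the other libraries, and the median difference was 0.0208 on the log2 scale. These differences ran from -0.747 to 0.511. Members were separated by 2, 4, 7 and 4 other listed genes.

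**Figure D5:**
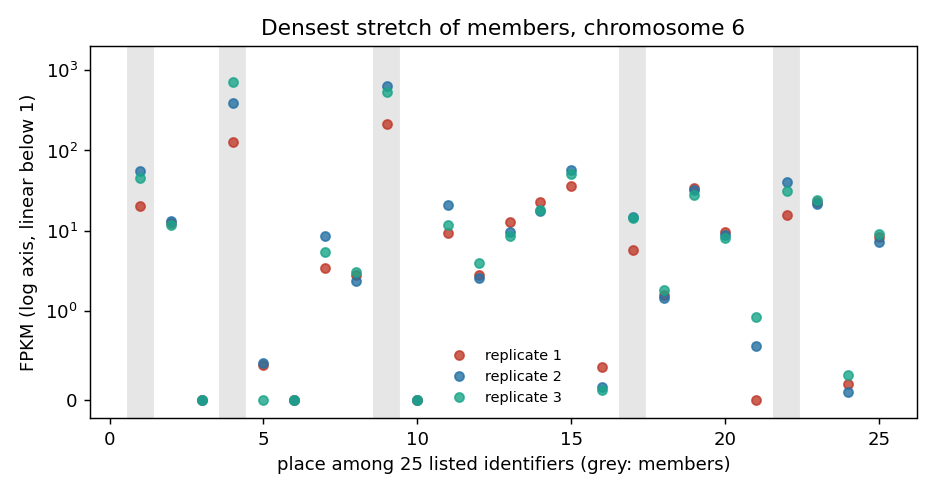
FPKM (log axis, linear below 1) of 25 successive listed genes of chromosome 6 in replicates 1, 2 and 3, with the 5 members shaded. In the shaded genes replicate 1 lies below the other libraries, while in most unshaded genes the 3 points lie close together.

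Similar genes lay beyond the level limits of the rule. From 1 to below 10 FPKM mean, 389 of 9617 genes detected in all libraries were as low in replicate 1, against 87 in replicate 2 and 89 in replicate 3. At a mean of 1000 FPKM or more there was 1 such gene in replicate 1 among 100, Manes.16G123200.v6.1, with 578, 2338 and 2140 FPKM, and 0 in the other libraries. A further 15 genes were listed at 0 in replicate 1 while both other libraries stood at 10 FPKM or more. The matching counts for replicates 2 and 3 were not taken. Genes at 0 numbered 6636, 6514 and 7131 in replicates 1, 2 and 3. Some of the 15 shared their rounded values. Manes.01G274700.v6.1 and Manes.11G073000.v6.1 both stood at 12.3 and 18.5 FPKM in replicates 2 and 3, and Manes.11G038300.v6.1 and Manes.S096000.v6.1 at 50.6 and 84.6 FPKM. A listed 0 can be a failed estimate, and these genes were outside the rule.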

How the data were processed

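The authors deposited FPKM values in 1 table, with 1 column for each library, as its header names them. Cufflinks 2.2.1 (an abundance estimator) and TopHat2 2.0.11 (an aligner for spliced reads) are named in the submitters' processing notes. Neither build nor settings were given in the sources used here, nor was any further scaling. FPKM values are not counts, so no count model was used, no counting interval or detection floor is given for a level, and depth is unknown. All per-sample columns were mapped by their names (0 columns unused), and 3 libraries form 1 group.

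The rule was applied to the values as deposited, without pseudocount. Ratios were taken on FPKM. The same rule was run with replicates 2 and 3 as the low library. Members and comparisons were chosen with earlier results of these data known, and no test was made. The genes named by rule are the 2 members with the largest drop. Gene lists and cell type markers planned for named genes could not be filled, since 0 identifiers matched a RefSeq gene table of assembly M.esculenta_v8. No sequences were used here. Alternatives were another level filter, FPKM + 1 (a pseudocount of 1), median-of-ratios scaling, removal of genes with shared values of 100 FPKM or more, other thresholds and leaving out replicates. The code was checked on simulated libraries with little noise and planted drops well above or well below the threshold. That check bears on the code alone and not on genes near the threshold. Calculations used pandas 2.3.3 and numpy 2.4.6 in Python 3.11.15, with scipy 1.17.1 for the binomial limits on shares of genes against which alternatives were compared and matplotlib 3.10.9 for plots.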

Additional observations from a re-analysis of the deposited data

How the results depend on the processing

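The number of members, 201, was 591 for a mean of at least 1 FPKM with no upper limit and 1033 with no filter on level, 48 at 3-fold, 25 at 4-fold, and 340 when the mean of replicates 2 and 3 replaced the lower. Leaving out a replicate gave 250 without replicate 2 and 484 without replicate 3. In those 2 wider level settings, in that order, the median mean was 4.93 and 1.38 FPKM. Replicates 2 and 3 lay within 25% of each other in 53.6% and 47.1% of genes there. A lowered gene lay next to 46 of the 591 and 106 of the 1033 genes, against 2 of 201. Adjacent members numbered 6 by next eligible gene, 4 by next gene of mean 1 FPKM or more and 11 within 5 places. They numbered 8 of 250 without replicate 2 and 20 of 484 without replicate 3. Larger sets have more members that can lie side by side. The share of eligible genes beside a lowered gene was not computed for these larger sets. It cannot exceed 2 times the lowered share, since each gene has at most 2 adjacent places. With 591 of 21307 and 1033 of 24914 eligible genes lowered, the adjacent shares in the 2 wider level settings were above that limit. Lowered genes there thus lay beside each other more often than eligible genes lay beside a lowered gene. Without replicate 2 or replicate 3 the adjacent shares were not above it. None of this was tested. Of the eligible genes of chromosome 6, 4.25% were lowered with no filter on level, 3.05% without replicate 2 and 5.14% without replicate 3. Over all eligible genes the numbers in these settings were 1033 of 24914, 250 of 11611 and 484 of 11636. The overall share was thus also above 1.73% in each, and with no filter on level it was close to that of chromosome 6. The excess of genes low in replicate 1 over the next library was 188, and 489 and 754 in the wider settings; it was 86 without replicate 2 and 252 without replicate 3, so its sign was kept in all 7 alternatives run. The median drop ran from 1.24 to 1.36 on the log2 scale. Scaling, FPKM + 1 and removal of shared values left 196, 177 and 200 members, which were all among the 201. The alternatives for level and chromosome were chosen after seeing the data. Without replicate 1 the rule cannot be applied. No paired analysis was possible because the libraries form 1 group.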
